A study of Mus musculus with 48 samples.

Results

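The mevalonate branch of sterol synthesis was followed through 8 genes of the 27281 in the RNA-Seq table of STHdh cells. They were chosen by name, as enzymes that carry acetyl-CoA to the C15 and C20 isoprenoid diphosphates, and all 8 were found, each in a single row. In the order of the pathway they are Acat2, Hmgcs1, Mvk, Pmvk, Mvd, Idi1, Fdps and Ggps1. All 8 passed the filter on low values, a mean of at least 1 on the log2 scale, which left 13409 genes for testing.

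Murine striatal progenitor cells of C57BL/6 background were studied in 16 conditions with 3 samples each, 48 samples in all. The cells are conditionally immortalized lines that carry the mutant (STHdhQ111) or wild-type (STHdhQ7) form of huntingtin, the gene of Huntington's disease, and each genotype is represented by a single line. All samples spent 24 h in serum-free medium. STHdhQ111 cells received vehicle or a compound from a set of 14 that had been selected because they protect these cells from serum withdrawal, and STHdhQ7 cells received vehicle only. Diacylglycerol kinase inhibitor II (DKI), loxapine, cyproheptadine, meclizine and selisistat were given at 10 µM, pizotifen at 5 µM and cysteamine at 250 µM. The antagonist 4-deoxypyridoxine (DOP) was given at 4 mM and sodium butyrate at 1 mM. Haloperidol and nicotinamide were given at 0.5 nM, nortriptyline at 1 nM, trichostatin A at 10 nM and fingolimod phosphate at 250 nM. The samples were collected on 3 days and at 3 times of the day, and nothing further in the labels says that they came from separate cultures, so p-values measure the spread between these samples.

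Cells build cholesterol and isoprenoids from acetyl-CoA. The thiolase Acat2 and the synthase Hmgcs1 make the substrate from which mevalonate is formed, the kinases Mvk and Pmvk phosphorylate mevalonate, and the decarboxylase Mvd turns the product into isopentenyl diphosphate. Idi1 isomerizes this unit, Fdps joins such units to farnesyl diphosphate, and Ggps1 extends farnesyl to geranylgeranyl diphosphate. Farnesyl diphosphate is the branch point between squalene, the committed precursor of cholesterol, and the prenyl groups of proteins, ubiquinone and dolichol. When sterols in the endoplasmic reticulum run low, the SREBP transcription factors are released and raise transcription of the pathway, commonly together with NF-Y and Sp1 bound nearby. Cells of the brain make their own cholesterol, since little crosses the blood-brain barrier.

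Promoter sequences of 7 of the 8 genes, each from 250 bases before to 50 bases after the start that RefSeq gives (GRCm38.p6), were available, and there was no entry for Fdps. Gene positions in the text come from GENCODE annotation of GRCm38. The starts were the same for Mvk, Pmvk, Mvd and Ggps1, while the RefSeq start lay 28 bases before the GENCODE start for Hmgcs1 and 105 and 22 bases after it for Idi1 and Acat2. They were searched on both strands for TCACNCCA, the core of the sterol regulatory element to which SREBPs bind, for CCAAT, the NF-Y box, for GGGCGG, the Sp1 box, for TGATGNAA, a C/EBP-ATF response element, and for CACGTG, the E-box. The sequences of Hmgcs1, Mvk, Idi1 and Ggps1 are shown because they differ most in what was found, and capitals mark the matches. Hmgcs1 lies on chromosome 13 from 119690379 to 119708260 on the plus strand and Mvk on chromosome 5 from 114444269 to 114460591 on the plus strand. Idi1 lies on chromosome 13 from 8885501 to 8892451 on the plus strand and Ggps1 on chromosome 13 from 14050659 to 14063488 on the minus strand. Each sequence is written 5′ to 3′ on the strand of its gene.
Hmgcs1: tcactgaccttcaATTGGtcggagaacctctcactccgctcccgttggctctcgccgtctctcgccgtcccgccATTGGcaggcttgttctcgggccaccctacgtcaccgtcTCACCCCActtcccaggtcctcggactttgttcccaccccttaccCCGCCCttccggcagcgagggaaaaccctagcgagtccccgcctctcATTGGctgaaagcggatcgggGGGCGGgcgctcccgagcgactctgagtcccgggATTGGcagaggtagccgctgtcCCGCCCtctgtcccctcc
Mvk: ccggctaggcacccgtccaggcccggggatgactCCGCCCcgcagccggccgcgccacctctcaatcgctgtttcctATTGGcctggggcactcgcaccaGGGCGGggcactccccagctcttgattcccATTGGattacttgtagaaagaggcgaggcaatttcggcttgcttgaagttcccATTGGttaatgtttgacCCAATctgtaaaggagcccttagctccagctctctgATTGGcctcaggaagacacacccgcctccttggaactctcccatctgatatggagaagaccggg
Idi1: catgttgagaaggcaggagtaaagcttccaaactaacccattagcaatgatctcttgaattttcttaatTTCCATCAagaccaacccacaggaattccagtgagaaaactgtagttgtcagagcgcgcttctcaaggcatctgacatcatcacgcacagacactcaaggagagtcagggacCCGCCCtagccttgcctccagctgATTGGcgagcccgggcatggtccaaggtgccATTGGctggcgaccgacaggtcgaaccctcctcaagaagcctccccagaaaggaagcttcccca
Ggps1: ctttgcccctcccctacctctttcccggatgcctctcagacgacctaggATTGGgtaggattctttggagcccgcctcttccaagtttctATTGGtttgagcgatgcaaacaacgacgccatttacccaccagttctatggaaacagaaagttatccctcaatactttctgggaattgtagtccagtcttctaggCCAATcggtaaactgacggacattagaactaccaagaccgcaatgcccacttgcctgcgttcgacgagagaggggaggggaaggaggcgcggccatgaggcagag

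The Hmgcs1 sequence spans chr13:119690101-119690400, the Mvk sequence chr5:114444019-114444318, the Idi1 sequence chr13:8885356-8885655 and the Ggps1 sequence chr13:14063439-14063738. Of the 7 genes, Hmgcs1 had the sterol regulatory element core, at position -137 from its RefSeq start. This motif was present in 4.36% of all 32851 promoters of the table. Hmgcs1 also had 4 NF-Y boxes and 3 Sp1 boxes. Mvk had 5 NF-Y boxes, 4 of them on the minus strand at equal distances of 53 bases, and 2 Sp1 boxes. Idi1 had 2 NF-Y boxes, 1 Sp1 box and, at position -181 from its RefSeq start, the C/EBP-ATF element that was found in 3.97% of all promoters. Ggps1 had 3 NF-Y boxes and none of the other motifs. Mvd had 2 NF-Y boxes and 1 Sp1 box, the entry of Pmvk at its annotated start 1 NF-Y box, a second Pmvk entry no match, and Acat2 1 Sp1 box. NF-Y and Sp1 boxes were common in the table as a whole, in 37.4% and 35.7% of promoters, and the E-box, found in 7.15%, was in none of the 7. These are matches of letters within short windows and say nothing of binding.

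**Figure D1:**
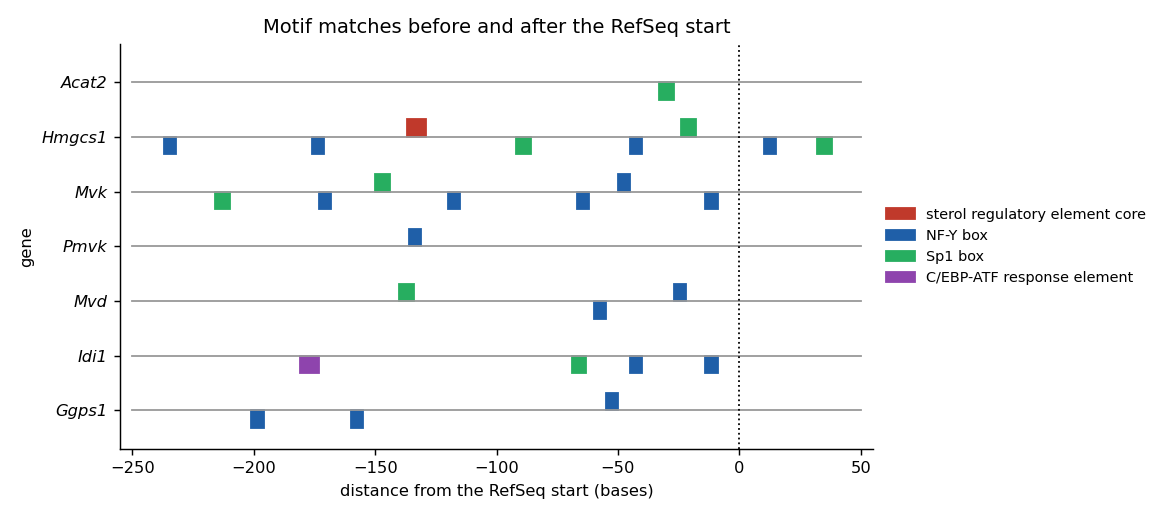
Matches to 4 motifs in the promoters of 7 genes, by distance in bases from the RefSeq start (dotted line). Boxes above a line are matches on the strand of the gene and boxes below it are matches on the other strand. The sterol regulatory element core appears in Hmgcs1 alone, 4 NF-Y boxes of Mvk lie at equal distances, and for Pmvk the entry at the GENCODE start is drawn.

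Acat2 lies on chromosome 17 from 12942890 to 12960747 (minus strand), Pmvk on chromosome 3 from 89454541 to 89469013 (plus), Mvd on chromosome 8 from 122433601 to 122443422 (minus) and Fdps on chromosome 3 from 89093588 to 89101959 (minus). Annotated genes overlap 5 of the 8: Gm48342 is antisense to Hmgcs1, Gm20388 overlaps Mvd and Gm48574 Idi1 on the other strand, Gm43738 and Gm22935 lie on the strand of Fdps, and Arid4b overlaps Ggps1 on the other strand. The kit keeps strand, but the strand setting used in quantification is not given in the sources used here. Acat3, a near-identical neighbour of Acat2 that could share its reads, had a mean of 3.26, far below the 11.25 of Acat2.

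The deposited values are the authors' normalized abundances on a log scale whose transformation is not named. They were read as log2 values, so that a difference of 1 is a doubling, and folds are on that reading. Low values hardly varied between samples, as in a regularized logarithm, which would make differences smaller than those of the counts. No counts were given and the depth per sample is unknown. Replicates correlated across genes with r between 0.996 and 0.999, and sample medians over the tested genes lay between 8.06 and 8.09. The cells were checked against their label with marker lists. Of 9 neural progenitor markers, 3 had a mean of at least 6, Vim and Sox9 among them. Nes and Sox2 were low in STHdhQ111 vehicle cells, at 4.96 and 4.81, and higher in STHdhQ7 cells, at 10.95 and 8.91. None of the striatal neuron, astrocyte and oligodendrocyte markers reached 6. Mesenchymal markers reached it for 4 of 5, with Col1a1 at a median of 14.58, and of 4 microglial markers Tmem119 did. In such bulk samples, fewer cells of a type and less RNA per cell cannot be told apart.

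Among the compounds there were some with higher and some with lower levels of the branch. With cyproheptadine, loxapine and pizotifen, the 7 genes from Acat2 to Fdps were higher than with vehicle, by 0.29 to 0.92 on the log2 scale. With DKI the 7 were lower, with differences from -1.08 to -0.59, and with DOP 6 of them were lower. All these comparisons share the 3 vehicle samples. Ggps1, the enzyme that leads away from sterols, stayed within -0.14 and 0.06 of vehicle under all 14 compounds, and its difference passed the test under none of them (limma, smallest adjusted p = 0.149).

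**Figure D2:**
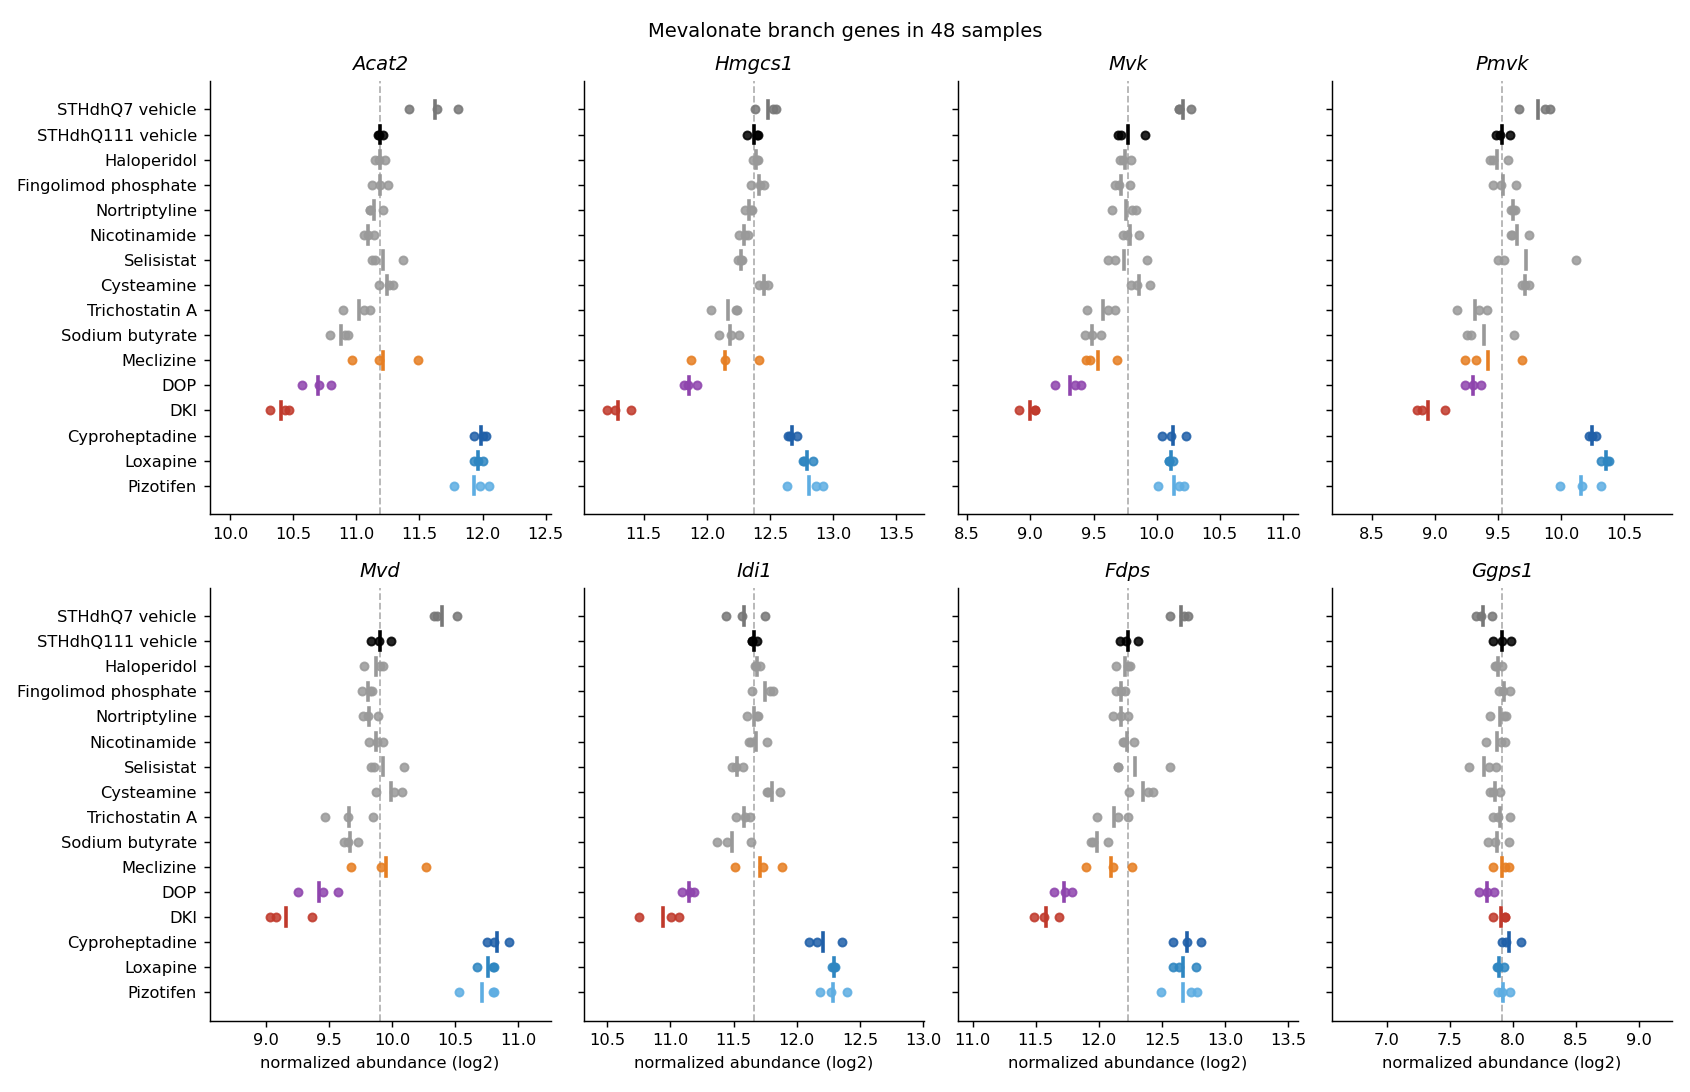
Normalized abundance (log2) of each of the 8 genes in all 48 samples, by condition. Points are samples, short bars are the means of 3 samples and the dashed line is the mean of the STHdhQ111 vehicle samples. The DKI mean lies lowest in the 7 panels from Acat2 to Fdps, though DKI and DOP samples overlap for Mvd and Fdps. The range over condition means is 1.58 for Acat2 and 0.21 for Ggps1.

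Acat2 condenses acetyl-CoA to acetoacetyl-CoA in the cytosol. Its level in STHdhQ111 vehicle samples was tight, at 11.21, 11.18 and 11.17. Cyproheptadine samples had 12.03, 11.93 and 12, loxapine samples 11.93, 11.97 and 12, and pizotifen samples 12.05, 11.77 and 11.98. Every one of these 9 samples lay above every vehicle sample. With DKI the level was 10.43, 10.46 and 10.32, and with DOP it was 10.80, 10.57 and 10.71, in all 6 samples below vehicle. Meclizine gave the widest spread of Acat2 in any condition, 10.96, 11.49 and 11.18, on both sides of the vehicle samples. In fold terms, Acat2 was 1.74 times vehicle with cyproheptadine, 1.71 times with loxapine, 1.68 times with pizotifen, and 0.58 times with DKI.

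Hmgcs1 makes HMG-CoA from acetoacetyl-CoA and was the most abundant of the 8 on average, with a mean of 12.31 over all samples, although levels of different genes are not corrected for length here. Vehicle samples had 12.40, 12.40 and 12.32. DKI samples had 11.40, 11.27 and 11.21. This difference of -1.08 (standard error 0.08, adjusted p = 1.15e-13) was the largest of any of the 8 genes against vehicle and corresponds to 0.472 times the vehicle level. The rise of Hmgcs1 was by contrast among the smaller ones. Cyproheptadine samples reached 12.71, 12.66 and 12.64, loxapine samples 12.84, 12.76 and 12.77, and pizotifen samples 12.92, 12.63 and 12.86, without overlap with vehicle. DOP samples, at 11.82, 11.92 and 11.85, were below vehicle, and meclizine samples were spread over 11.87, 12.41 and 12.14.

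Mvk and Pmvk add phosphate groups to mevalonate in sequence. Mvk was at 9.69, 9.72 and 9.91 with vehicle. It reached 10.23, 10.04 and 10.12 with cyproheptadine, 10.10, 10.10 and 10.13 with loxapine, and 10.22, 10.01 and 10.17 with pizotifen. It fell to 9.04, 9.04 and 8.91 with DKI and to 9.40, 9.20 and 9.35 with DOP. None of these 15 samples overlapped the vehicle range, but the rise with the 3 compounds, 1.28, 1.26 and 1.28 times vehicle, was the smallest or next to smallest of the 7 genes. Pmvk was at 9.52, 9.48 and 9.59 with vehicle. It rose more, to 10.22, 10.25 and 10.27 with cyproheptadine, 10.32, 10.38 and 10.37 with loxapine, and 10.17, 9.99 and 10.32 with pizotifen. DKI samples had 9.08, 8.90 and 8.86. The DOP samples of Pmvk, 9.36, 9.24 and 9.30, lay below the vehicle samples, but the difference of -0.23 did not pass the test over all genes (adjusted p = 0.142). Pmvk had the largest residual SD of the 8 genes, 0.146, and in selisistat its second sample stood apart, at 10.12 beside 9.55 and 9.49.

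Mvd decarboxylates mevalonate diphosphate. Its vehicle samples had 9.83, 9.89 and 9.99. It showed the largest rise of the branch with each of the 3 compounds, to 10.81, 10.75 and 10.92 with cyproheptadine, 10.68, 10.80 and 10.81 with loxapine, and 10.80, 10.53 and 10.81 with pizotifen. These were 1.89, 1.81 and 1.75 times the vehicle level. DKI samples had 9.37, 9.04 and 9.08 and DOP samples 9.57, 9.25 and 9.45. Both sets lay below vehicle, and they overlapped each other.

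Idi1, the isomerase, was at 11.65, 11.69 and 11.65 with vehicle. Cyproheptadine samples had 12.36, 12.10 and 12.16, loxapine samples 12.30, 12.28 and 12.30, and pizotifen samples 12.40, 12.18 and 12.27. DKI samples had 11.06, 11 and 10.75 and DOP samples 11.09, 11.18 and 11.16. The rises were 1.46 to 1.55 times vehicle and the falls to 0.605 and 0.698 times.

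Fdps makes farnesyl diphosphate at the branch point. Vehicle samples had 12.17, 12.22 and 12.31. Cyproheptadine samples had 12.81, 12.59 and 12.70, loxapine samples 12.77, 12.59 and 12.64, and pizotifen samples 12.78, 12.50 and 12.73, all above vehicle. DKI samples had 11.68, 11.57 and 11.49 and DOP samples 11.79, 11.65 and 11.73, all below it. The second selisistat sample again stood apart, at 12.56 beside 12.15 and 12.15.

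Ggps1 was the least abundant of the 8, with a mean of 7.88 over all samples and a residual SD of 0.068, the smallest of them. Vehicle samples had 7.84, 7.99 and 7.91. Cyproheptadine samples had 8.06, 7.95 and 7.91, loxapine samples 7.88, 7.93 and 7.87, and pizotifen samples 7.92, 7.88 and 7.97. DKI samples had 7.94, 7.93 and 7.84 and DOP samples 7.73, 7.85 and 7.79. Each of these ranges overlapped the vehicle range. The 95% interval of the difference from vehicle ran from -0.13 to 0.11 with DKI and from -0.06 to 0.18 with cyproheptadine. Changes of the size seen in the other 7 genes with the same compound lay outside these intervals. With DOP the interval ran from -0.24 to -0.002 (limma, unadjusted p = 0.0469) and held -0.23, the difference of Pmvk with DOP.

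**Figure D3:**
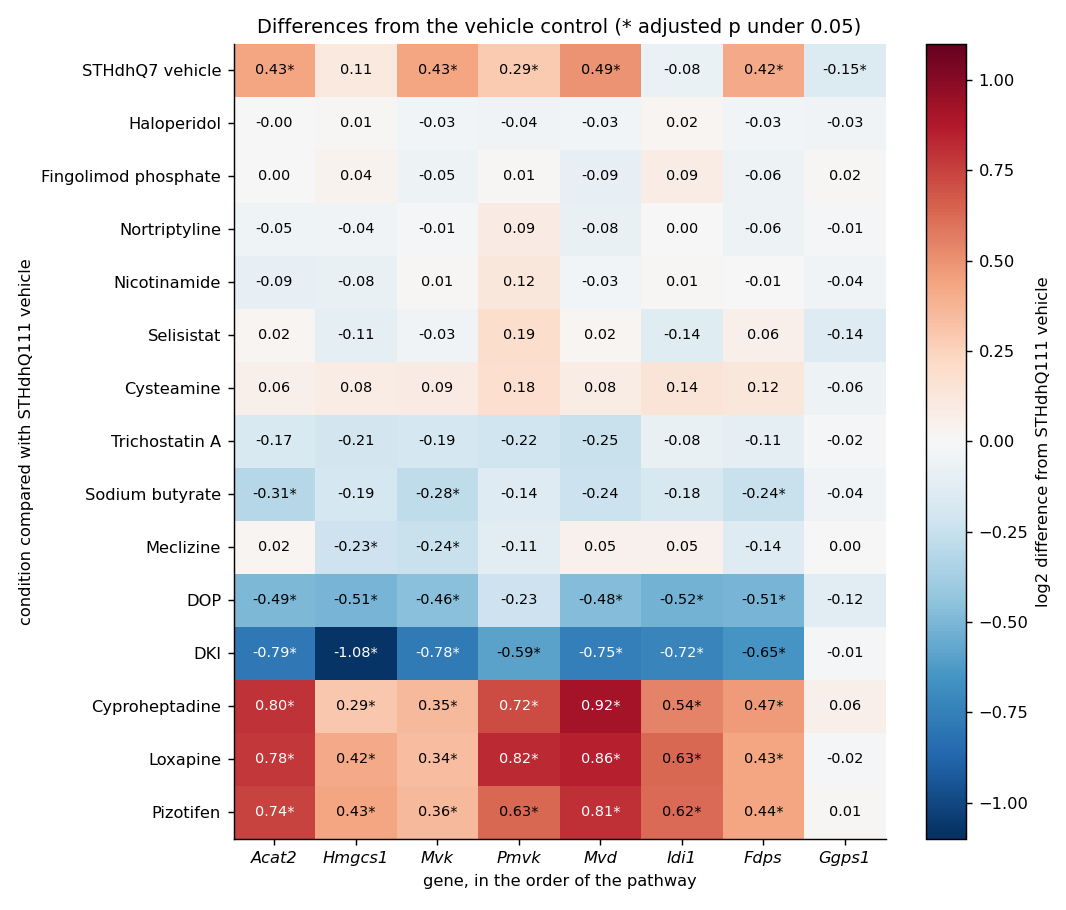
Differences on the log2 scale between each condition and STHdhQ111 vehicle for the 8 genes in pathway order, with the value in each cell. An asterisk marks an adjusted p under 0.05 (limma, Benjamini-Hochberg). Cyproheptadine, loxapine and pizotifen are higher and DKI lower for 7 genes, and no compound has an asterisk for Ggps1.

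Cyproheptadine is an antihistamine, loxapine an antipsychotic and pizotifen a serotonin antagonist used against migraine, and all are tricyclic amines. With each of them 7 of the 8 genes were higher than vehicle. Among all 13409 genes tested, 17.5% were higher with cyproheptadine, 10.1% with loxapine and 8.86% with pizotifen. The median difference over the 8 genes was 0.51, 0.53 and 0.53, while the medians over all genes tested were -0.00068, 0.0048 and -0.0047. With cyproheptadine the differences were 0.80 for Acat2 (standard error 0.09, adjusted p = 1.19e-08) and 0.92 for Mvd (standard error 0.11, adjusted p = 1.66e-08). The smallest was 0.29 for Hmgcs1 (standard error 0.08, adjusted p = 0.00338). With loxapine, Pmvk rose by 0.82 (standard error 0.11, adjusted p = 1.39e-06) and Idi1 by 0.63 (standard error 0.08, adjusted p = 7.71e-07). With pizotifen, Acat2 rose by 0.74 (standard error 0.09, adjusted p = 3.84e-07) and Mvk, the least changed of the 7, by 0.36 (standard error 0.08, adjusted p = 0.000845). Pizotifen resembles cyproheptadine in structure, with a thiophene ring in place of a benzene ring and a saturated bridge, but it was given at 5 µM and cyproheptadine at 10 µM. Their values therefore stand side by side, 0.36 to 0.81 for pizotifen and 0.29 to 0.92 for cyproheptadine over the 7 genes, and were not compared.

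DKI inhibits kinases that phosphorylate the lipid messenger diacylglycerol. With it 7 of the 8 genes were lower than vehicle, where 21.9% of all genes were lower. The median difference over the 8 genes was -0.74. After Hmgcs1, the differences were -0.79 for Acat2 (standard error 0.09, adjusted p = 4.61e-09), -0.78 for Mvk (standard error 0.08, adjusted p = 1.67e-10), -0.75 for Mvd, -0.72 for Idi1, -0.65 for Fdps and -0.59 for Pmvk. The adjusted p over these 7 was at most 4.24e-05. With meclizine, an antihistamine like cyproheptadine, 2 of the 8 genes were lower, Hmgcs1 at -0.23 (adjusted p = 0.0249) and Mvk at -0.24 (adjusted p = 0.0165), where 13.6% of all genes were lower. The 3 meclizine samples were far apart in most of the branch, with an SD of 0.27 for Acat2 and Hmgcs1 and 0.30 for Mvd, the second sample highest for all 8 genes. Without meclizine replicate 1, Hmgcs1 was at -0.09 (adjusted p = 0.462) and Mvk at -0.20 (adjusted p = 0.111). Without its replicate 3 they were at -0.23 and -0.21 (adjusted p = 0.0646 and 0.0844), without vehicle replicates 1 and 2 in turn Hmgcs1 was at -0.21 both times (adjusted p = 0.0909 and 0.0833), and without vehicle replicate 3 Mvk was at -0.17 (adjusted p = 0.141).

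Of the compounds at 10 µM, cyproheptadine, loxapine, meclizine and DKI were compared directly in 6 pairs. Cyproheptadine and loxapine differed for 0 of the 8 genes at an adjusted p under 0.05 in limma, where 10.5% of all genes differed. At an unadjusted p under 0.05 it was 0 of the 8 and 24.1% of all genes. Their differences ran from -0.12 for Hmgcs1 (95% interval -0.29 to 0.04) to 0.08 for Ggps1 (95% interval -0.04 to 0.20), and the interval for Mvd was -0.15 to 0.28. Both antihistamines at the same dose differed for 7 of the 8 genes, cyproheptadine being higher than meclizine by 0.50 for Idi1 to 0.87 for Mvd, where 9.83% of all genes were higher. In a fit of the compared samples alone it was 6 genes, with Idi1 at 0.39 (adjusted p = 0.0718). All 3 cyproheptadine samples of these 7 genes lay above all 3 meclizine samples, but the share of all genes without such overlap was not computed. Loxapine was higher than meclizine for the same number of genes, 7, by 0.57 for Fdps to 0.94 for Pmvk, against 11.7% of all genes. Against DKI, cyproheptadine was higher for 7 of the 8, where 13.9% of all genes were higher, and these conditions share their days and times of collection. Replicate 1 of each is labelled as day 3, so that neither had a sample of day 1, whereas the vehicle samples came from all 3 days. The differences were 1.58 for Acat2, 1.38 for Hmgcs1, 1.13 for Mvk, 1.30 for Pmvk, 1.67 for Mvd, 1.27 for Idi1 and 1.12 for Fdps, which is 2.17 to 3.18 times. Loxapine was higher than DKI for 7 of the 8, against 18.5% of all genes, by 1.09 for Fdps to 1.60 for Mvd.

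Meclizine was higher than DKI for 7 of the 8 genes as well, where 3.8% of all genes were higher. The differences ran from 0.47 for Pmvk (adjusted p = 0.00552) to 0.85 for Hmgcs1 (adjusted p = 7.0e-09). Without meclizine replicate 2, Pmvk was higher by 0.32 (adjusted p = 0.0988). In a fit of the compared samples alone, 3 of the 7 passed the threshold. Ggps1 did not differ past the threshold in any of the 6 pairs, with differences from -0.02 to 0.08.

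**Figure D4:**
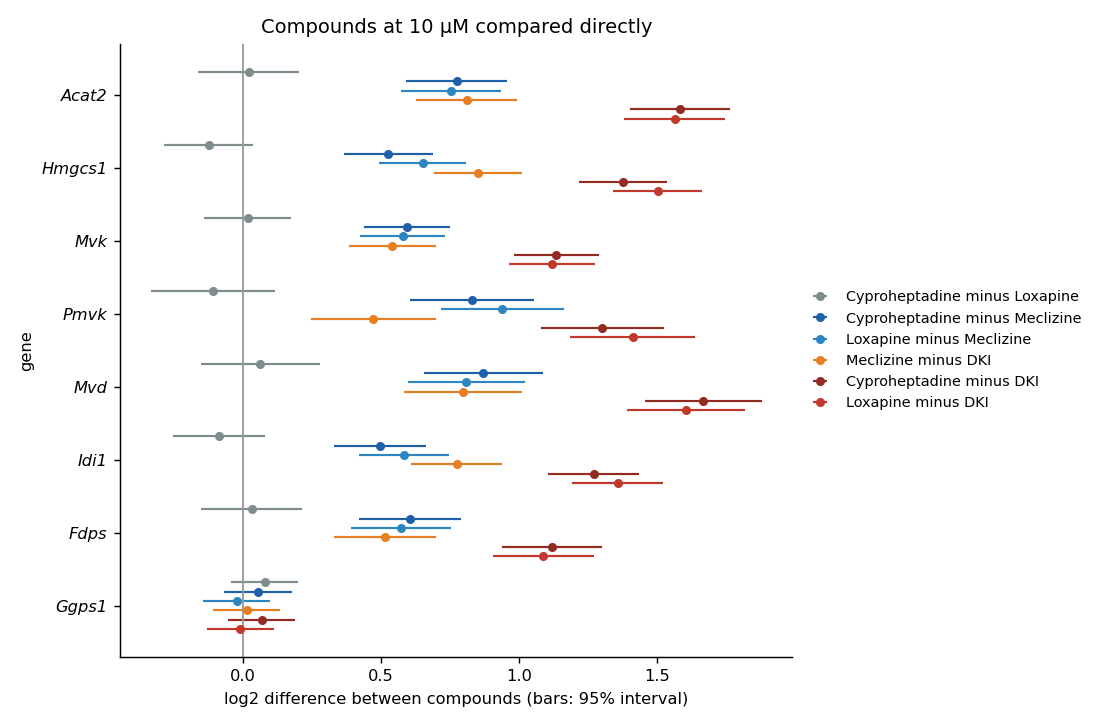
Differences on the log2 scale between pairs of compounds given at 10 µM, for each gene, with 95% intervals as bars. For the 7 genes from Acat2 to Fdps, loxapine and cyproheptadine differ from meclizine by 0.50 to 0.94 and meclizine from DKI by 0.47 to 0.85, while cyproheptadine minus loxapine includes 0 throughout.

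DOP is an antagonist of vitamin B6. With it 6 of the 8 genes were lower than vehicle, where 11.2% of all genes were lower. Idi1 was at -0.52 (standard error 0.08, adjusted p = 2.6e-05), Hmgcs1 and Fdps at -0.51, Acat2 at -0.49, Mvd at -0.48 and Mvk at -0.46. The falls were of nearly one size, to between 0.698 and 0.729 times the vehicle level, and the median over the 8 genes was -0.49. Ggps1 was at -0.12 (adjusted p = 0.149). At an unadjusted p under 0.05 in limma, 8 of the 8 genes passed with DOP, and 32.2% of all genes.

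Sodium butyrate and trichostatin A inhibit histone deacetylases. With sodium butyrate 3 of the 8 genes were lower, where 17.8% of all genes were lower. Acat2 samples had 10.93, 10.79 and 10.91, with a difference of -0.31 (adjusted p = 0.00568). Mvk was at -0.28 (adjusted p = 0.00361) and Fdps at -0.24 (adjusted p = 0.0298). The call of Fdps was lost without vehicle replicate 2 (-0.25, adjusted p = 0.0615) or 3 (-0.20, adjusted p = 0.115) and without butyrate replicate 2 or 3 (-0.22 both times, adjusted p = 0.0986 and 0.0889). The other 5 genes were between -0.24 and -0.04. Without butyrate replicate 1, 5 of the 8 genes passed. With trichostatin A, 0 of the 8 genes passed the test in limma and 13.1% of all genes were called in either direction. An unadjusted p under 0.05 was found for 3 of the 8 and for 26.8% of all genes. Its differences ran from -0.25 for Mvd to -0.02 for Ggps1.

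In the other 6 compounds, 0 of the 8 genes were called in limma. At an unadjusted p under 0.05 there was 1 gene with selisistat, Ggps1 at -0.14, and 0 with the other 5. The shares of all genes at that unadjusted level were 17.2% with selisistat and 2.96% to 26.4% with the others. The shares of all genes called in either direction were 0.515% with selisistat, 7.83% with cysteamine, 10.4% with nicotinamide, 3.83% with nortriptyline, 0.0597% with fingolimod phosphate and 0% with haloperidol. The 4 compounds given at 250 nM or less in this group, nicotinamide, nortriptyline, fingolimod phosphate and haloperidol, gave 32 differences between -0.09 and 0.12, with 95% intervals that together spanned -0.31 to 0.34. Rises as large as those of Acat2 and Mvd with cyproheptadine were outside these intervals. Cysteamine differences were between -0.06 and 0.18 and those of selisistat between -0.14 and 0.19. The second selisistat sample was higher than the others for Acat2, Mvk, Pmvk, Mvd and Fdps.

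The vehicle samples shared all their combinations of day and time of collection only with STHdhQ7 and selisistat. The 4 nanomolar compounds above shared theirs with other compounds, fingolimod phosphate and haloperidol with pizotifen, meclizine and trichostatin A, and nicotinamide and nortriptyline with loxapine, DOP, sodium butyrate and cysteamine. Each of these 7 compounds was therefore compared a second time, with the nanomolar samples of its own collection slots. Pizotifen remained higher for 7 of the 8 genes, by 0.40 to 0.87, where 9.34% of all genes were higher. Loxapine remained higher for 7, by 0.34 to 0.91, against 11.9% of all genes. DOP was lower for 7, Pmvk now included at -0.33 (adjusted p = 0.02), against 5.08% of all genes. That call of Pmvk was lost without DOP replicate 2 (-0.30, adjusted p = 0.12) or 3 (-0.33, adjusted p = 0.0679), and that of Mvd without DOP replicate 2 (-0.33, adjusted p = 0.0555).

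Against the same reference, sodium butyrate was lower for 5 of the 8 genes, where 13.8% of all genes were lower. Without its replicate 2 only Mvk was called, and without its replicate 3 there were 2 genes. The count was also 2 without nortriptyline replicate 2 and 3 without nortriptyline replicate 1 or 3 or nicotinamide replicate 2. Meclizine was lower for 2, Hmgcs1 at -0.26 and Mvk at -0.20, against 14% of all genes. Without meclizine replicate 1 these were -0.11 and -0.16 and were not called (adjusted p = 0.254 and 0.163), and without its replicate 3 Mvk was at -0.17 (adjusted p = 0.124). Trichostatin A was lower for Hmgcs1 alone, at -0.23 (adjusted p = 0.0178), against 6.32% of all genes, and without its replicate 2 this was -0.16 (adjusted p = 0.189). With cysteamine 0 of the 8 genes were called in limma, and 0.119% of all genes, and at an unadjusted p under 0.05 it was 0 of the 8 and 8.73% of all genes. Cyproheptadine and DKI had no nanomolar compound with the same slots.

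**Figure D5:**
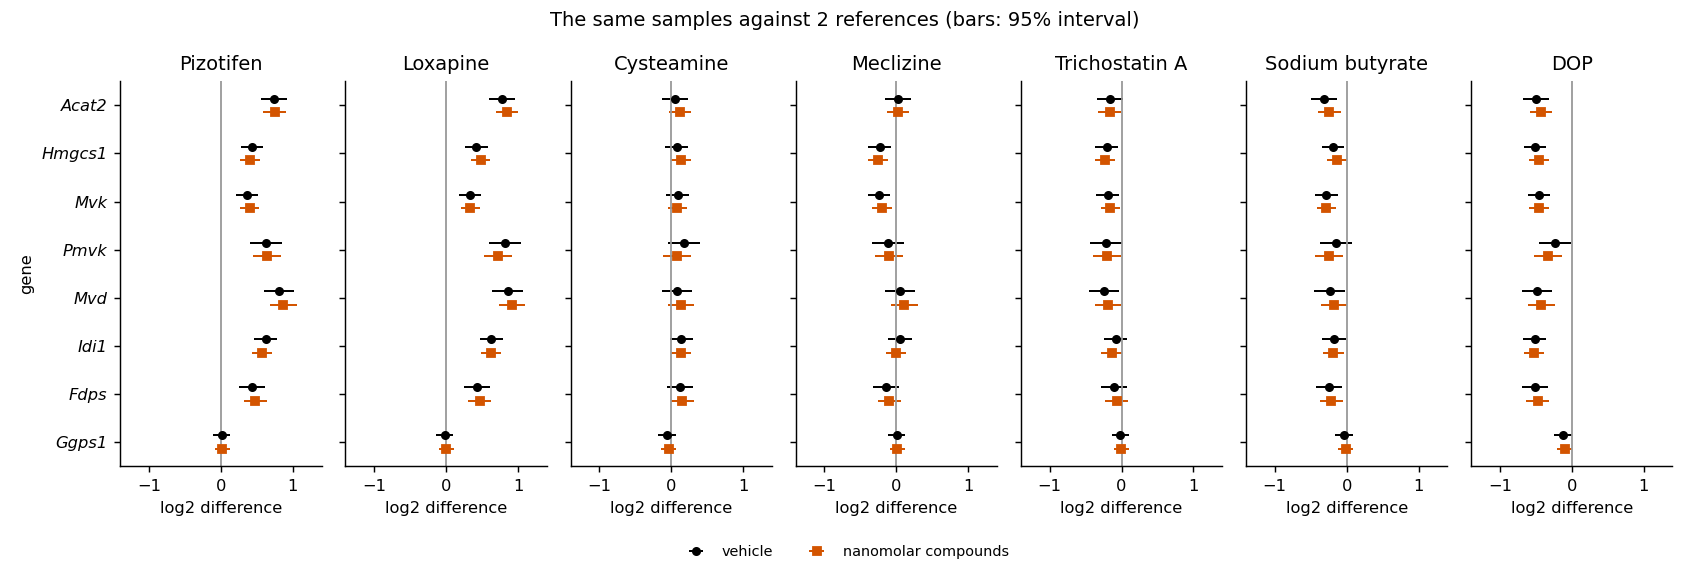
Differences of 7 compounds on the log2 scale from STHdhQ111 vehicle (circles) and from the nanomolar compounds collected in the same slots (squares), for each gene, with 95% intervals as bars. The values for pizotifen and loxapine stay above 0 and those for DOP below 0 under both references for the 7 genes from Acat2 to Fdps.

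The cell lines differed in their vehicle samples. In STHdhQ7 cells 5 of the 8 genes were higher than in STHdhQ111 cells, where 29.2% of all genes were higher, and 1 was lower, where 26.6% were lower. Mvd had 10.51, 10.33 and 10.36 in STHdhQ7 cells, a difference of 0.49 (standard error 0.10, adjusted p = 0.000108). Mvk had 10.17, 10.17 and 10.27, a difference of 0.43 (standard error 0.08, adjusted p = 7.3e-06), and was higher in STHdhQ7 cells than its mean in any compound. Acat2 had 11.81, 11.42 and 11.64, a difference of 0.43, and Fdps 12.71, 12.57 and 12.68, a difference of 0.42. Pmvk, at 9.87, 9.67 and 9.91, differed by 0.29 (adjusted p = 0.0256). That call was lost without STHdhQ7 replicate 1 (0.26, adjusted p = 0.0828) or 3 (0.24, adjusted p = 0.109) and without STHdhQ111 replicate 1 (0.28, adjusted p = 0.061) or 2 (0.26, adjusted p = 0.0794).

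Hmgcs1 and Idi1 did not pass the test between the lines, at 0.11 (95% interval -0.05 to 0.27) and -0.08 (95% interval -0.24 to 0.09). Their STHdhQ7 samples overlapped those of STHdhQ111, whereas every cyproheptadine, loxapine and pizotifen sample of both genes lay above the vehicle samples. Ggps1 was lower, with 7.75, 7.71 and 7.83 in STHdhQ7 cells and a difference of -0.15 (adjusted p = 0.0302). Its call was lost without STHdhQ7 replicate 1 (-0.15, adjusted p = 0.0713) or 2 (-0.12, adjusted p = 0.129), without STHdhQ111 replicate 2 (-0.11, adjusted p = 0.164) or 3 (-0.15, adjusted p = 0.0588), and in a fit of the compared samples alone (adjusted p = 0.159). Each genotype is a single line, and the lines also differed in Nes and Sox2 as given above, so genotype and line cannot be told apart.

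When the 16 condition means of a gene were put in order, DKI was lowest for each of the 7 genes from Acat2 to Fdps, and DOP came next. The top was shared by a few conditions. Cyproheptadine was highest for Acat2, Mvd and Fdps, loxapine for Pmvk and Idi1, pizotifen for Hmgcs1 and STHdhQ7 vehicle for Mvk. In most cases neighbours in the order could not be separated, since the sample ranges of 12 or 13 of the 15 neighbouring pairs overlapped for these genes. Among the gaps that held, DKI samples were clear of DOP samples for Acat2, Hmgcs1, Mvk, Pmvk and Idi1 but not for Mvd and Fdps. Cysteamine was clear of the next higher condition for Acat2, Mvk, Mvd, Idi1 and Fdps. For Ggps1 all 15 neighbouring pairs overlapped, from STHdhQ7 vehicle at 7.76 to cyproheptadine at 7.97.

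The similarity of the profiles was described over the 16 condition means after removal of the collection day. These means share libraries and a normalization. Pearson's r among the 7 genes ran from 0.849 to 0.993 over 21 pairs, with a median of 0.928. Acat2 and Mvd were the closest pair, with r = 0.993, and Mvk and Fdps followed with 0.983. Pmvk was most like Mvd, at 0.965, Hmgcs1 most like Mvk, at 0.943, and Idi1 most like Acat2, at 0.932. Ggps1 stood apart, with r from 0.040 with Mvk to 0.447 with Idi1. Of 9929 other genes with a mean of at least 6, Nsdhl (r = 0.961), Fdft1 (0.961), Pcyt2 (0.957) and Acly (0.954) were among the closest 5 to the mean profile of the 8. Nsdhl removes methyl groups from sterol intermediates, Fdft1 makes squalene, Pcyt2 acts in phosphatidylethanolamine synthesis and Acly makes cytosolic acetyl-CoA.

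Other genes around the branch were taken as lists and are described by counts. From squalene to cholesterol, 13 of 13 genes were higher with cyproheptadine, with loxapine and with pizotifen, with median differences of 0.53, 0.52 and 0.49. Among all genes tested, 17.5%, 10.1% and 8.86% were higher with these compounds. With cyproheptadine, Cyp51 (0.86), a sterol demethylase, and Lss (0.83), which closes the sterol ring, rose most. With DKI 10 of 13 were lower, with Hsd17b7 at -0.98 and Tm7sf2 at -0.73, and with DOP 11 of 13, with Lss at -0.75. Among all genes, 21.9% were lower with DKI and 11.2% with DOP. With meclizine 0 of 13 were called in limma, where 13.1% of all genes were higher and 13.6% lower. An unadjusted p under 0.05 was found for 2 of 13 and for 36.4% of all genes. In STHdhQ7 cells 13 of 13 were higher, where 29.2% of all genes were higher. The median of the 13 in STHdhQ7 cells was 0.87, with Tm7sf2 at 1.48 and Ebp at 1.03. The median of the branch itself was 0.35 there.

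Genes that use the isoprenoids downstream of Fdps and Ggps1, such as prenyltransferases and the enzymes of ubiquinone and dolichol synthesis, gave mixed counts. Of 14 such genes, 5 were higher and 1 lower with cyproheptadine and the same counts were found with DKI, with medians of 0.13 in both. Over all genes, 17.5% were higher and 18.2% lower with cyproheptadine, and 20.4% were higher and 21.9% lower with DKI. Rabggtb, a subunit of the Rab prenyltransferase, was higher in both, at 0.52 and 0.39. With loxapine 3 were higher and 2 lower, with pizotifen 2 and 1, and with DOP 0 and 3. Among all genes, 10.1% were higher and 11.8% lower with loxapine, 8.86% and 9.07% with pizotifen, and 8.93% and 11.2% with DOP.

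Of 8 regulators of sterol sensing, Insig1, which retains the SREBP complex in the endoplasmic reticulum and is itself an SREBP target, moved with the branch. It was at 0.87 with cyproheptadine, 0.67 with loxapine, 0.71 with pizotifen, -0.61 with DKI and -0.77 with DOP. Stard4, a sterol carrier, was at 0.34, 0.33, 0.37, -0.67 and -0.52. Srebf2, the SREBP gene most tied to cholesterol synthesis, was at 0.02, 0.13 and 0.10 with the 3 tricyclic compounds, which did not pass the test, and at -0.36 with DKI and -0.44 with DOP, which did. In all, 2 of 8 were higher and 1 lower with each tricyclic compound, 2 higher and 5 lower with DKI, and 0 higher and 4 lower with DOP. The shares of all genes higher were 17.5% with cyproheptadine, 10.1% with loxapine and 8.86% with pizotifen. The shares lower with them were 18.2%, 11.8% and 9.07%. With DKI 20.4% of all genes were higher and 21.9% lower, and with DOP 8.93% and 11.2%.

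Of 5 genes of sterol efflux and its nuclear receptors, Mylip, which marks lipoprotein receptors for degradation, was lower with cyproheptadine (-0.52), loxapine (-0.45), pizotifen (-0.34), meclizine (-0.33) and DKI (-0.31). It was the only gene of this list called with these compounds except with meclizine, which also lowered Abca1 (-0.63), a cholesterol exporter. Over all genes, 18.2% were lower with cyproheptadine, 11.8% with loxapine, 9.07% with pizotifen, 13.6% with meclizine and 21.9% with DKI. In STHdhQ7 cells Abcg1 (-0.85), Abca1 (-0.58) and Mylip (-0.38) were lower, where 26.6% of all genes were lower. Among 4 tested genes of acetyl-CoA supply and paralogs of the branch, Acss2 and Acly were higher with cyproheptadine (0.56 and 0.37), loxapine (0.53 and 0.33) and pizotifen (0.54 and 0.32) and lower with DKI (-0.77 and -0.58). With DOP, Acly was lower (-0.51) and Acss2 was at 0.01. Acat1, the mitochondrial thiolase, was lower with cyproheptadine (-0.18) and DKI (-0.41). The shares of all genes higher were 17.5% with cyproheptadine, 10.1% with loxapine and 8.86% with pizotifen, and 11.2% were lower with DOP.

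Mmab, chosen for its position, starts 209 bases from Mvk on the other strand and so shares most of the promoter printed for Mvk. It encodes an enzyme of cobalamin metabolism. It was lower with DKI (-0.43), DOP (-0.34) and sodium butyrate (-0.28), as Mvk was, and higher with loxapine (0.24). With trichostatin A, Mmab was lower at -0.18 (limma, adjusted p = 0.0445) while Mvk, at -0.19, was not called (adjusted p = 0.0893). With meclizine, where Mvk was lower, Mmab was at -0.10 and was not called (adjusted p = 0.258). With cyproheptadine and pizotifen Mmab was at 0.14 and 0.10, which did not pass the test (adjusted p = 0.062 and 0.301). Between the cell lines it went the other way from Mvk, at -0.24 in STHdhQ7 against 0.43 for Mvk.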

How the data were processed

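RNA-Seq was measured in 48 samples, 3 in each of 16 conditions taken from the sample labels. Per the submitters' notes and the study's methods, the authors used Trimmomatic 0.36 for trimming, the GRCm38.p5 transcriptome for alignment and RSEM for quantification. The deposited values are normalized log2 abundances, whose transformation is not given in the sources used here. There are no counts, so the depth is unknown, counting errors are not given and count models, which the authors ran in DESeq2, were not used.

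With limma 3.58.1 in R 4.3.3, condition and collection day were fitted per gene on all 48 samples, with a variance trend and 30 residual degrees of freedom. Of 18178 genes with a symbol, 13409 with a mean of at least 1 were tested. P-values were two-sided and Benjamini-Hochberg adjusted over all of them per comparison, and calls were made at 0.05. No pseudocount was added to log2 values. Matched nanomolar references, 6 pairs of compounds and settings of filter, scaling, day, time, block and left-out replicates were also fitted. Figures used matplotlib 3.10.9.

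The genes of the branch, the pathway lists and the markers were chosen with earlier results of these data known. Named genes are the 8 members, list genes with the largest changes, and the 5 closest profiles. Some genes of these sets are not reported here. Insig1, Stard4, Srebf2, Rabggtb, Acat1 and Mmab were named after their values were seen. Residuals of same-numbered samples had a mean correlation of -0.049, and 1 of 120 pairs of conditions had every correlation over 0.1, so the replicate number was not treated as pairing beyond the collection day.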

Additional observations from a re-analysis of the deposited data

How the results depend on the processing

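With cyproheptadine, loxapine, pizotifen, DKI and DOP against vehicle, 34 values of the branch were called. Under the other settings and left-out replicates, which share most of their samples, these gave 496 values. All 496 kept their direction and their call, with a largest adjusted p of 0.0257 in limma. With the replicate number as a block in place of the day, 109 of 109 called values over all comparisons kept theirs. Counts of other comparisons moved. In a fit of only the compared samples, the count was 1 lower with meclizine (2 in the fit of all samples), 1 higher with cysteamine (0), 0 lower in STHdhQ7 (1), 3 higher for meclizine against DKI (7), and 3 lower with trichostatin A against matched nanomolar samples (1). It was also 6 higher for cyproheptadine against meclizine (7), 7 lower with DOP (6), and 4 and 7 lower with sodium butyrate against vehicle (3) and matched samples (5). Without a filter on the mean, sodium butyrate against matched samples had 2 lower (5). Matched nanomolar samples in place of vehicle gave 1 lower with trichostatin A (0) and 5 with sodium butyrate (3). Ranked by Spearman's rho, 1 of the 5 genes closest to the branch, Fdft1, was shared. The cause was not tested.

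Leaving out 1 replicate at a time, the number of genes called lower ranged from 0 to 1 in STHdhQ7, 0 to 2 with meclizine against either reference, 2 to 5 with sodium butyrate against vehicle and 1 to 5 against matched samples, and 0 to 1 with trichostatin A against matched samples. Among values past the threshold, 45 of 741 lost it when a replicate was left out and 12 of 897 under other settings, and none changed sign. Pseudocounts were not run, since the values are logarithms. With no depth, the precision rests on the spread between samples, pooled over all 48 samples with 3 per condition.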
